A study of Solanum lycopersicum and Solanum pennellii and Solanum pimpinellifolium with 52 samples.

Results

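The 100 most evenly expressed genes of cultivated tomato and 3 wild relatives were taken from a table of RPKM values (reads per kilobase of gene model, scaled to the reads of the library) for 28298 gene models in 52 RNA-seq libraries. The rule kept the 4186 gene models with at least 10 RPKM in every library and, among these, the 100 with the smallest standard deviation (SD) of log2(RPKM + 1) over all libraries. These 100 genes are called the members, and the 4186 the eligible genes. Because the rule used the value of every gene in every library, the levels, spreads and group differences below describe the members and support no claim about them. Chromosome, gene model length and ID version were not used by the rule.

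The libraries came from 2 experiments, both grown in a chamber at 22 °C. The seedling experiment held 7 libraries of each of 4 species: Solanum lycopersicum (accession LA3475), S. habrochaites (LA1777), S. pennellii (LA716) and S. pimpinellifolium (LA1589), all harvested as whole seedlings from plates under standard light, with RNA from a Qiagen kit. The factorial experiment held S. lycopersicum LA3475 (its titles say M82) and S. pennellii LA716 in 6 tissues (leaf, stem, root, vegetative meristem, inflorescence and whole seedling), each under simulated shade (red to far-red ratio 0.48) or sun (3.1) at about 95 µE, with Trizol RNA. Every factorial combination was 1 library, so a tissue was represented by 4 libraries. The labels do not say whether the 7 seedling libraries of a species came from separate plants or cultures, and any spread among them may be partly technical. Experiment, extraction method and light differ together, so a difference between the experiments cannot be assigned to any of them. The shallowest library held 1477052 reads, the median one 2309105 and the deepest 5556059, as recovered from the RPKM steps.

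S. lycopersicum is the cultivated tomato. S. pimpinellifolium is its close red-fruited wild relative, and S. habrochaites and S. pennellii are more distant green-fruited species, the latter from dry coastal habitats of western South America. Genes with an even level across tissues are of practical use as internal references in quantitative PCR, where a target transcript is expressed relative to a gene assumed to be constant. They commonly serve functions that every cell needs, such as transcription, RNA processing, protein turnover and vesicle traffic. The sources used here do not pair the tomato gene IDs with names or functions, so the members are given by ID only and none could be assigned to such a function. For the same reason the tissue labels were not checked against marker genes.

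The most even gene was Solyc10g005650.2.1, on chromosome 10, with an SD of 0.183 on the log2 scale. Its level was 61.1 ± 7.91 RPKM (mean ± SD, n = 52) and stayed between 46.2 and 77.2 RPKM in every library, a 1.67-fold range. Seedling libraries had a lowest, median and highest value of 54.2, 61.6 and 69.6 RPKM in S. lycopersicum and 60.0, 71.3 and 74.1 RPKM in S. pimpinellifolium. In S. habrochaites the same values were 50.5, 59.1 and 68.7 RPKM, and in S. pennellii they were 51.1, 63.0 and 72.5 RPKM. The 4 species overlapped. In the factorial the values, in the order S. pennellii shade, S. pennellii sun, S. lycopersicum shade and S. lycopersicum sun, were 73.5, 67.6, 56.5 and 76.8 RPKM in seedling and 66.2, 51.7, 50.9 and 64.3 RPKM in leaf. Root gave 56.5, 64.3, 77.2 and 58.0 RPKM, and stem gave 49.0, 55.3, 52.1 and 60.0 RPKM. Inflorescence gave 58.8, 55.9, 62.0 and 46.2 RPKM, and vegetative meristem gave 50.9, 50.1, 57.7 and 53.4 RPKM. Its highest library was a root and its lowest an inflorescence, and the ranges of all 6 tissues overlapped.

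Solyc02g094540.2.1 on chromosome 2 had the next smallest SD, 0.199, at a level of 30.1 ± 4.44 RPKM (SD, n = 52). Its one tissue apart was the inflorescence, at 39.1, 39.9, 41.0 and 38.4 RPKM in the same library order. All 20 other factorial libraries lay lower, at most 35.1 RPKM. Solyc07g065710.2.1, Solyc07g055300.2.1 and Solyc07g017750.2.1, all on chromosome 7, completed the 5 smallest, with SDs of 0.222, 0.228 and 0.237. Solyc07g065710.2.1 averaged 63.3 ± 9.88 RPKM and was higher in the factorial seedlings (94.1, 81.3, 85.8 and 69.0 RPKM) than in leaf (64.9, 46.1, 38.1 and 50.5 RPKM), with no overlap. Solyc07g055300.2.1 averaged 34.8 ± 5.86 RPKM and did not exceed 48.8 RPKM. Solyc07g017750.2.1 averaged 36.7 ± 6.29 RPKM, and its S. pennellii seedlings (24.8 to 30.9 RPKM) lay below the lowest S. lycopersicum seedling (31.7 RPKM).

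**Figure D1:**
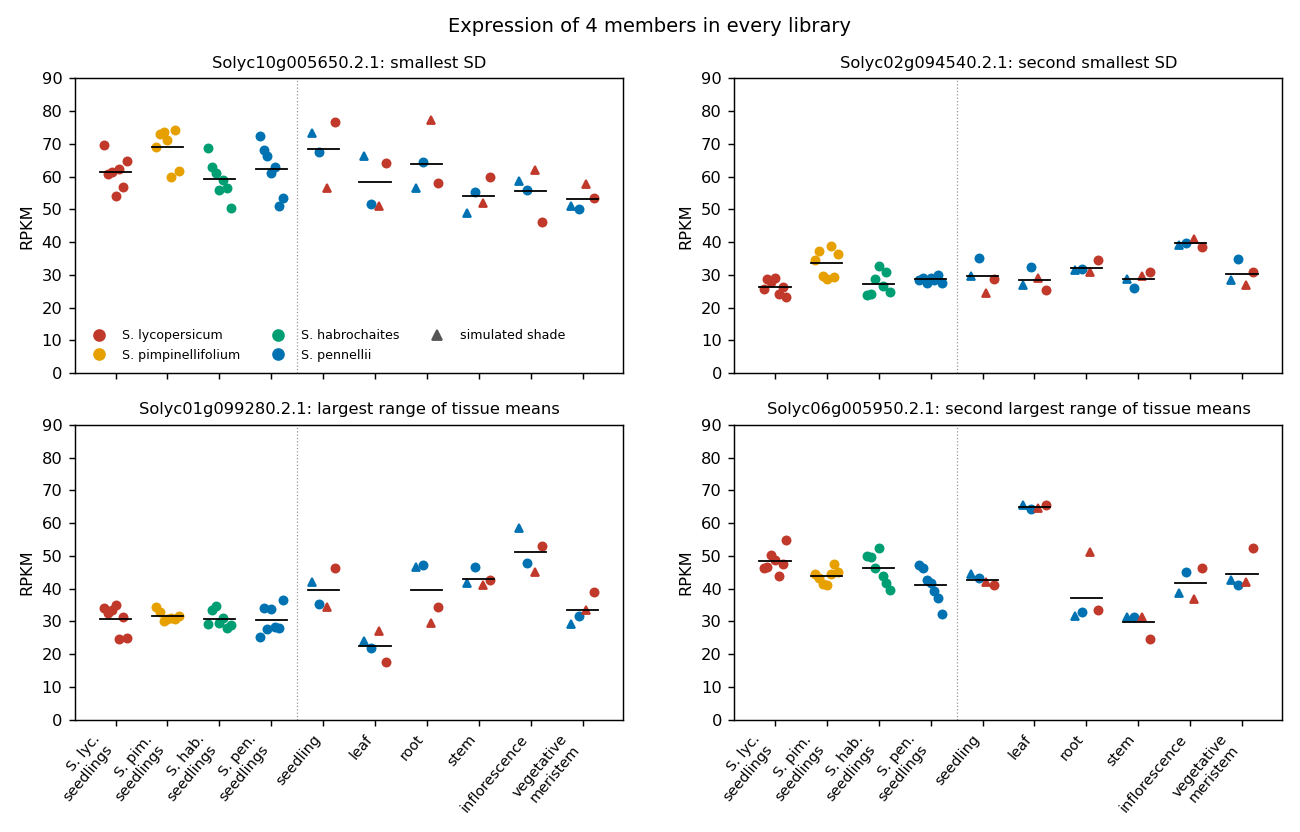
RPKM of 4 members (vertical axis, linear) in all 52 libraries: the 4 seedling groups left of the dotted line and the 6 factorial tissues right of it, with colour for species, triangles for simulated shade and a bar for the group mean. The 2 genes with the smallest SD (top) stay within 46.2 to 77.2 and 23.2 to 41.0 RPKM, while the 2 with the widest tissue range (bottom) move in opposite directions in leaf.

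The members were mostly of moderate abundance. Their mean level ran from 15.7 to 808 RPKM with a median of 35.8, beside a median of 57.7 and a maximum of 65507 over the eligible genes. In the band of 20 to 50 RPKM lay 59 members of 1758 eligible genes. Another 5 of 48 lay between 10 and 20 RPKM, 23 of 1097 between 50 and 100, 9 of 1029 between 100 and 500, and 4 of 151 between 500 and 1000. None of the eligible genes at 1000 RPKM or more was a member. The median SD of a member was 0.303 beside 0.564 for all eligible genes. The highest library of a member exceeded its lowest by 1.67- to 4.27-fold, with a median of 2.69, beside a median of 6.0 over the eligible genes. A range of no more than 2-fold was found in 4 eligible genes, all members.

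**Figure D2:**
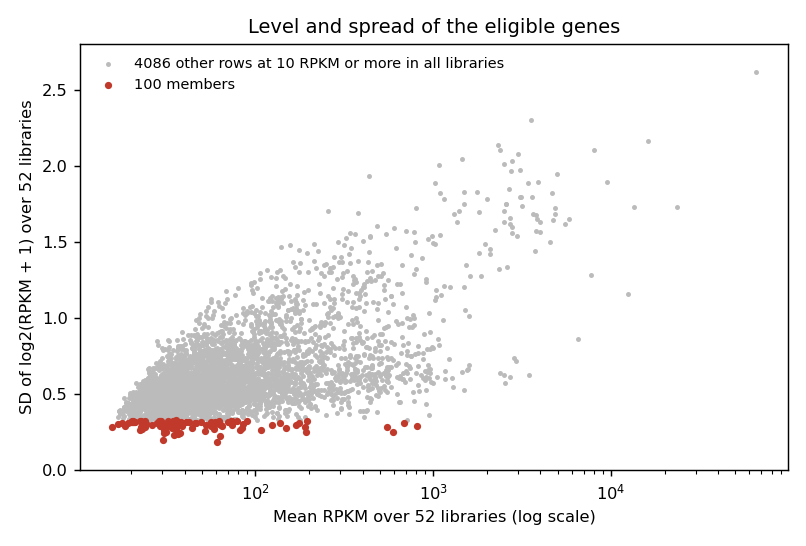
SD of log2(RPKM + 1) over 52 libraries (vertical axis) against mean RPKM (horizontal axis, log scale) for the eligible genes, 1 point each. The 100 members (red) are the lower edge of the cloud, at SDs of 0.183 to 0.326, and reach no further right than 808 RPKM.

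Only 4 members exceeded 500 RPKM on average. Solyc04g011510.2.1 was the most abundant at 807.7 ± 180.2 RPKM (SD, n = 52). It was followed by Solyc01g104170.2.1 at 685.7 ± 164 RPKM, Solyc11g042930.1.1 at 589.9 ± 105 RPKM and Solyc01g005620.2.1 at 550.1 ± 111 RPKM. RPKM is per length, so these levels can be set beside those of the other genes. Solyc04g011510.2.1 was nonetheless uneven between the species in root, at 1501 and 1347 RPKM in S. pennellii (shade, sun) against 684 and 807 RPKM in S. lycopersicum. Stem had the same order, at 1027 and 1220 RPKM in S. pennellii against 564 and 881 RPKM. The least abundant members were Solyc12g035520.1.1 at 15.7 ± 3.53 RPKM and Solyc09g014440.2.1 at 16.9 ± 3.78 RPKM.

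The boundary of the set was not a gap. Ranks 98, 99 and 100 were Solyc03g059100.1.1, Solyc06g072050.2.1 and Solyc01g079840.2.1, with SDs of 0.3248, 0.3257 and 0.3263. The next ranks, just outside, were Solyc07g062620.2.1 at 0.3265, Solyc06g073470.2.1 at 0.3272 and Solyc09g008920.2.1 at 0.3273. The highest library was at 59.5 RPKM for rank 100 and at 40.5 RPKM for rank 101.

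Counting of reads alone set a floor under these spreads. A member had on average 177 reads per library (median over members, range 45.5 to 1836), beside a median of 171 over the eligible genes. The SD that Poisson counting alone would give had a median of 0.115 on the log2 scale, beside 0.127 for the eligible genes. Counting therefore accounted for 15.8% of the variance of the median member, with a range of 1.31% to 72.6%, beside a median of 5.24% over the eligible genes. In 25 members the counting SD was at least 50% of the observed SD. Reads are not independent molecules where PCR copies occur, and these figures cover counting error only.

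The gene models of the members were longer than those of the eligible genes, a property the rule did not use directly. The length implied by the RPKM steps had a median of 1638 bases among members (459 to 5037) and 1051.5 bases among eligible genes. At least 1000 bases were found in 77 members and in 2209 (52.8%) of the eligible genes. A longer gene gives more reads at the same RPKM and so a smaller counting error. The mean reads per library had a median of 177 among members and 171 among eligible genes. The smallest read count in a library had a median of 80.5 among members and 48 among eligible genes. The part of length in the selection was not tested.

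Members lay on all 12 chromosomes named in the gene IDs. Chromosome 1 held 15 of 601 eligible genes, chromosome 2 held 8 of 406, chromosome 3 held 11 of 458 and chromosome 4 held 7 of 342. Chromosome 5 held 4 of 285, the smallest share at 1.40%, and chromosome 11 held 10 of 283, the largest at 3.53%. Between these lay chromosome 6 with 9 of 377, chromosome 7 with 7 of 304, chromosome 8 with 9 of 278, chromosome 9 with 5 of 277, chromosome 10 with 10 of 294 and chromosome 12 with 5 of 269. None of the 12 eligible genes on unplaced sequence (chromosome 0 in the IDs) was a member. The ID version ending 2.1 was carried by 79 members (79.0%), 75.0% of eligible genes and 51.0% of all gene models.

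**Figure D3:**
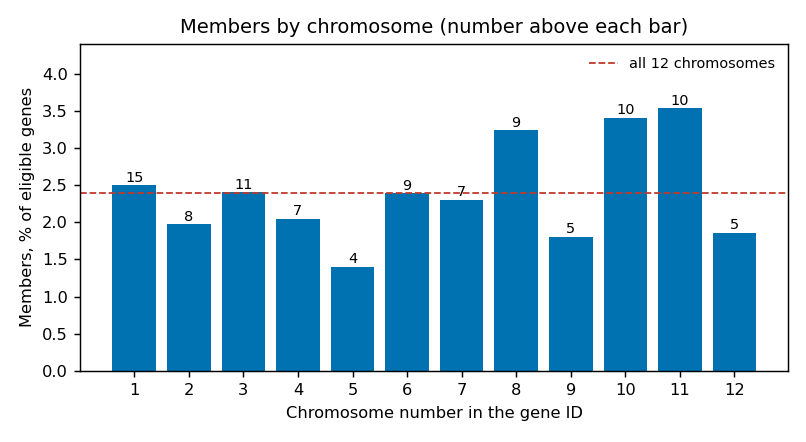
Members as a percent of the eligible genes of each chromosome (vertical axis), by the chromosome number in the gene ID, with the number of members above each bar and the share over all 12 chromosomes as a dashed line. Shares run from 1.40% on chromosome 5 to 3.53% on chromosome 11, with 4 to 15 members per chromosome.

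Few members were close neighbours. The nearest pair by ID number was Solyc01g095280.2.1 and Solyc01g095300.2.1, with 1 gene model between them, whose log2 values had a Pearson r of -0.38 over the 52 libraries. Solyc01g008770.2.1 and Solyc01g008820.2.1, with 4 gene models between them, had an r of 0.10. These correlations and those below share the libraries' scaling and are descriptions. Over all pairs of members the median r was 0.17, and over all pairs of eligible genes it was also 0.17. After median-ratio scaling, which divides each library by the median ratio of its genes to their mean over libraries, the median r was 0.16 among members and 0.03 among eligible genes. After quantile normalization, which gives every library the same distribution of values, it was 0.07 and 0.04.

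The tissue means of the members spread wider than their species means, as they did in most eligible genes. The fold between the highest and lowest of the 6 tissue means was 1.18 to 2.23 with a median of 1.64, beside a median of 2.79 over the eligible genes. The fold between the highest and lowest of the 4 seedling species means was 1.03 to 1.66 with a median of 1.25, beside 1.52. In 91 members the tissue range was the larger of the 2, a share close to the 3894 (93.0%) of the eligible genes. The ranges are not of like construction, since 6 tissue means rest on 4 libraries each, of both factorial species, and 4 species means on 7 libraries each. Tissue means reached a 2-fold range in 3 members and in 3426 (81.8%) of the eligible genes. Species means reached a 1.5-fold range in 5 members and in 2170 (51.8%). In whole tissues, fewer cells of a type and less RNA per cell cannot be told apart.

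In the deposited values the lowest tissue mean was most often in leaf and the highest most often in root, among the members and the eligible genes alike. The lowest tissue mean fell in leaf for 54 members, in vegetative meristem for 24, in stem for 8, in root for 7, in inflorescence for 4 and in seedling for 3. The highest fell in root for 40, in inflorescence for 27, in stem for 17, in seedling for 10, in vegetative meristem for 4 and in leaf for 2. Of the eligible genes, 49.5% were lowest in leaf and 20.8% in vegetative meristem, and 35.1% were highest in root, 24.8% in inflorescence and 6.67% in leaf. Median-ratio scaling turned the members' order over. The lowest mean was then in leaf for 2 members (1006 of the 4186 eligible genes) and the highest in leaf for 38 (797 eligible genes), while inflorescence was lowest for 37 (671) and root highest for 10 (1017). With quantile normalization 6 members were lowest in leaf (1317 eligible genes), 25 highest in leaf (513) and 18 highest in root (1174).

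The libraries themselves moved with this pattern. The members' median deviation from their own means was -0.31 to -0.06 on the log2 scale in the 4 leaf libraries, 0.14 to 0.28 in root and 0.13 to 0.22 in inflorescence. The same median over all eligible genes lay further out, at -0.54 to -0.18 in leaf, 0.34 to 0.56 in root and 0.32 to 0.41 in inflorescence. The log2 median-ratio factor of the whole library was -0.50 to -0.14 in leaf, 0.23 to 0.43 in root and 0.22 to 0.54 in inflorescence. The 20 most abundant gene models of each library took 16.9% to 23.4% of the reads in leaf, 8.07% to 15.3% in root and 4.80% to 9.28% in inflorescence. All 100 members together took 0.747% to 1.10% of the reads of a library. The part of these library differences in the members' tissue order was not tested beyond the rescaled values given above.

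**Figure D4:**
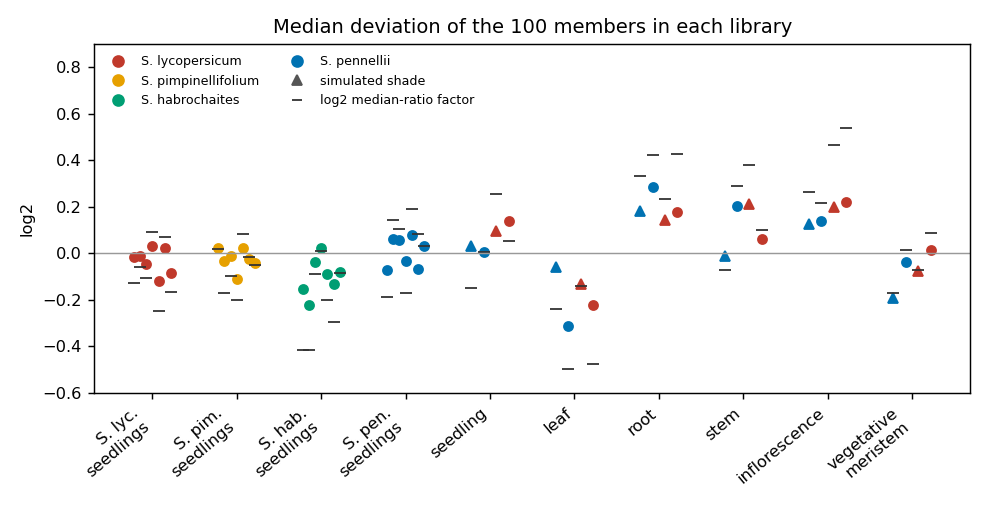
Median deviation of the 100 members from their own means (points, log2 scale) and the log2 median-ratio factor of the whole library (dashes) in each of the 52 libraries, grouped by seedling species and factorial tissue, with triangles for simulated shade. Leaf libraries lie below 0 and root and inflorescence libraries above 0 on both measures.

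The widest tissue range belonged to Solyc01g099280.2.1, on chromosome 1. In leaf it was at 24.1, 21.7, 26.9 and 17.5 RPKM, in the order S. pennellii shade, S. pennellii sun, S. lycopersicum shade and S. lycopersicum sun. In inflorescence it was at 58.5, 47.9, 45.0 and 52.9 RPKM. Leaf lay below all other factorial libraries, and the tissue means spanned 2.23-fold. On the log2 scale its leaf mean was 0.84 below the mean of the 5 other tissues (difference -0.84 ± 0.13, SE). Its seedling groups were level, with medians of 32.6 RPKM in S. lycopersicum, 30.9 RPKM in S. pimpinellifolium, and 29.6 and 28.2 RPKM in the green-fruited S. habrochaites and S. pennellii.

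Solyc06g005950.2.1 on chromosome 6 went the other way. It stood at 65.5, 64.2, 64.5 and 65.6 RPKM in the 4 leaf libraries, the narrowest tissue of this gene, and at 31.3, 31.3, 31.4 and 24.6 RPKM in stem. Every leaf library lay above every other factorial library, the nearest being 52.3 RPKM in the vegetative meristem of S. lycopersicum in sun. Its leaf difference was 0.74 ± 0.13 on the log2 scale (SE). It was one of the 2 members with their highest tissue mean in leaf, beside Solyc10g080520.1.1.

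Each of the other tissues had its own extreme member. Solyc10g005730.2.1 was highest in root at 90.1, 102, 93.4 and 107 RPKM, with 1 stem library (95.3 RPKM) reaching into that range, and its root difference was 0.62 ± 0.14. In stem, Solyc04g015270.2.1 was at 113, 146, 91.6 and 100.04 RPKM with a difference of 0.73 ± 0.12, while Solyc04g008520.2.1 was at 39.1, 64.3, 66.7 and 61.7 RPKM with a difference of -0.68 ± 0.14. In inflorescence, Solyc01g008770.2.1 was at 62.4, 55.7, 56.3 and 62.3 RPKM, above every other library of the 52, with a difference of 0.73 ± 0.12. The largest negative inflorescence difference was -0.35 ± 0.12 in Solyc12g014380.1.1. In the factorial seedlings, the abundant Solyc01g104170.2.1 was at 1169, 889, 939 and 1323 RPKM with a difference of 0.66 ± 0.14, and Solyc04g076090.2.1 had -0.46 ± 0.12. In vegetative meristem the extremes were 0.39 ± 0.13 in Solyc11g020590.1.1 and -0.56 ± 0.14 in Solyc09g014440.2.1. In root the largest negative difference was -0.43 ± 0.12 in Solyc08g015780.2.1.

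Among the seedling species, the widest differences were in Solyc03g112050.2.1 and Solyc07g062610.2.1. Solyc03g112050.2.1 on chromosome 3 had a lowest, median and highest value of 87.3, 104 and 110.3 RPKM in S. lycopersicum and of 107, 126 and 145 RPKM in S. pimpinellifolium. S. habrochaites had 152, 160 and 184 RPKM, and S. pennellii had 125, 157 and 168 RPKM. Every S. habrochaites and S. pennellii seedling library lay above every S. lycopersicum one, at differences of 0.69 ± 0.08 and 0.54 ± 0.08 on the log2 scale (SE). In the factorial this gene overlapped between the species, at 144 ± 29.9 RPKM in S. pennellii and 136 ± 36.1 RPKM in S. lycopersicum (SD, n = 12). Solyc07g062610.2.1 on chromosome 7 was low in S. habrochaites alone, at 36.4, 38.0 and 47.8 RPKM, against 54.3, 63.7 and 67.6 RPKM in S. lycopersicum. S. pennellii had 58.0, 68.5 and 79.3 RPKM and S. pimpinellifolium 55.3, 68.7 and 77.6 RPKM, so no other species overlapped it. Its S. habrochaites difference was -0.61 ± 0.09.

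Solyc08g015780.2.1 on chromosome 8 stepped down across the species. Its seedling mean was 70.1 ± 6.53 RPKM in S. lycopersicum and 60.2 ± 3.11 RPKM in S. pimpinellifolium (SD, n = 7). S. habrochaites was at 46.5 ± 4.38 RPKM and S. pennellii at 46.5 ± 3.59 RPKM. The last 2 overlapped and lay below every S. lycopersicum library. In the factorial its S. pennellii minus S. lycopersicum difference had the same sign, at -0.27 ± 0.09 against -0.58 ± 0.08 in the seedling experiment. S. pimpinellifolium, the closest relative, differed most in Solyc02g082030.2.1, at 39.8 ± 6.61 against 28.9 ± 2.87 RPKM in S. lycopersicum, and in Solyc08g077430.2.1, at 19.5 ± 1.29 against 26.3 ± 2.30 RPKM. In the factorial the extremes between the species were 0.41 ± 0.09 in Solyc04g015270.2.1 and -0.51 ± 0.12 in Solyc11g019930.1.1. Both were smaller in the seedling experiment, where S. pennellii minus S. lycopersicum was 0.09 ± 0.09 and -0.10 ± 0.12 and neither was called.

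All light differences of the members lay between -0.30 and 0.42 on the log2 scale. In S. lycopersicum the shade minus sun difference of the members had a median of 0.03 and ran from -0.26 in Solyc07g064040.2.1 to 0.42 in Solyc10g012070.2.1. Solyc10g012070.2.1 was at 53.3, 61.5 and 90.4 RPKM in shade (lowest, median and highest of 6 tissues) and at 37.2, 48.4 and 64.9 RPKM in sun, and was higher in shade in 6 of 6 tissues. Without either stem library of S. lycopersicum its difference was 0.29. In S. pennellii the same gene was higher in shade in 3 of 6 tissues. The S. pennellii differences had a median of -0.01 and ran from -0.30 in Solyc03g059100.1.1 to 0.37 in Solyc09g064930.2.1. Solyc09g064930.2.1 was at 68.8, 77.9 and 117 RPKM in S. pennellii shade and at 57.3, 64.6 and 70.1 RPKM in sun, higher in shade in 6 of 6 tissues, and in 4 of 6 in S. lycopersicum. Single libraries moved these values. Without either stem library of S. pennellii the difference of Solyc03g059100.1.1 was -0.17, and without either seedling library that of Solyc09g064930.2.1 was 0.24. The members' median in S. pennellii ran from -0.09 to 0.02 as single libraries were left out and so had no fixed sign, and in S. lycopersicum it ran from 0.00 to 0.07.

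With limma, fitted to all genes and adjusted by Benjamini-Hochberg over all of them, no member passed an adjusted p of 0.05 for light in S. lycopersicum (0.0% of all genes tested were called), in S. pennellii (0.00888%) or for the difference between the species' light terms (0.0%). At an unadjusted p under 0.05 there were 1, 2 and 2 members. The share of all genes at an unadjusted p under 0.05 is not given here, so nothing is read from such counts. With limma voom on the recovered reads the adjusted counts were also 0. The species by tissue F test called 0 members beside 8.46% of all genes, with 4 members at an unadjusted p under 0.05 (share of all genes not given). Without the shade seedling library of S. lycopersicum it called 1.

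The other contrasts were called for some members, and since the rule selected on these same values nothing is read from the counts. In the seedling experiment the counts were 10 members for S. pimpinellifolium against S. lycopersicum (14.8% of all 19536 genes tested were called), 23 for S. habrochaites (34.3%), 27 for S. pennellii (42.6%) and 50 in the F test over the 4 species (65.8%). Of the 10, 5 were higher and 5 lower (7.16% and 7.66% of all genes). Of the 23, 6 were higher and 17 lower (11.7% and 22.6%). Of the 27, 12 were higher and 15 lower (25.1% and 17.5%). After median-ratio scaling the splits were 3 higher to 7 lower in S. pimpinellifolium (7.73% and 8.88% of all genes), 16 to 8 in S. habrochaites (16.7% of all genes higher, of 35.7% called) and 7 to 21 in S. pennellii (22.4% and 21.9%). Quantile normalization gave 5 to 7 (8.96% and 8.32%), 15 to 11 (18.1% and 17.3%) and 7 to 26 (20.9% and 24.9%), in the same order. The S. habrochaites split of the members turned over with the scaling, and over all genes it went from mostly lower to about even. The seedling libraries fall into 3 blocks of run record numbers, whose meaning is not stated in the labels. The third block held only 2 libraries, both of S. habrochaites. The fits within a block left these 2 out, and in the fit with block as a covariate they carry no weight in the S. habrochaites difference. Members were slightly higher in the second block than in the first in all 4 species, by a median of 0.05 to 0.15 on the log2 scale. The same difference over the eligible genes is not given here. Whole libraries differed too: in each species the log2 median-ratio factor was higher in every second-block library than in every first-block library. In S. lycopersicum it was -0.25 to -0.11 in the first block and -0.06 to 0.09 in the second. Within the first block the 4 counts were 3, 9, 11 and 26, beside 9.03%, 24.8%, 33.8% and 50.9% of all genes tested there. Within the second they were 3, 7, 16 and 33, beside 10.4%, 24.7%, 38.7% and 59.0%. With the block as a covariate they were 20, 30, 38 and 62, beside 23.8%, 41.5%, 50.8% and 74.4%.

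In the factorial the F test over tissues called 64 members (77.3% of 22512 genes tested). Against the mean of the 5 other tissues, 48 were called in leaf (49.7%), 38 in root (52.1%), 23 in inflorescence (42.6%), 20 in stem (36.8%), 19 in vegetative meristem (35.2%) and 8 in seedling (19.1%). S. pennellii against S. lycopersicum gave 20 (37.0%), 8 higher and 12 lower (13.6% and 23.4%). In leaf 3 were higher and 45 lower (11.4% and 38.3% of all genes), and in root 34 were higher and 4 lower (34.5% and 17.5%). Inflorescence had 21 higher and 2 lower (29.8% and 12.8%), stem 15 and 5 (18.3% and 18.5%) and vegetative meristem 1 and 18 (14.2% and 20.9%). With median-ratio factors 30 were higher and 1 lower in leaf (20.7% of all genes in each direction), 1 and 16 in root (24.3% and 22.4%), and 4 and 27 in inflorescence (17.4% and 19.3%). Stem then gave 8 and 10 (16.6% and 21.7%), vegetative meristem 4 and 6 (17.5% and 16.3%), and the species contrast 15 and 4 (18.6% and 19.6%). Quantile normalization gave 12 and 1 in leaf (18.7% and 22.9%), 6 and 15 in root (26.3% and 22.8%), and 8 and 17 in inflorescence (20.3% and 18.3%). It gave 13 and 10 in stem (19.4% and 18.3%), 4 and 10 in vegetative meristem (16.3% and 18.9%), and 13 and 7 between the species (19.4% and 18.9%). The directions of the members called in leaf, root, inflorescence and between the species turned over under both scalings, and in stem under median-ratio scaling. No member passed an adjusted p of 0.05 together with a log2 difference of at least 1 in any contrast of the deposited values. Of all genes, 24.4% did so in leaf, 29.7% in root, 18.9% in stem and also in inflorescence, 15.9% in vegetative meristem, 9.22% in seedling and 10.6% between the species. In the seedling experiment the same shares were 4.65%, 13.3% and 18.7% for S. pimpinellifolium, S. habrochaites and S. pennellii. With 4 libraries per tissue, 1 library could move a count by over 1.5 times. The shares of all genes called in those smaller fits are not given here, so nothing is read from the counts about the members. Leaf gave 14 without the S. pennellii sun leaf, 18 without the S. lycopersicum sun leaf and 26 without its shade leaf. Root gave 15 to 25 without any one of its 4 libraries, stem 7 to 13, vegetative meristem 3 to 9 and seedling 1 to 5. Inflorescence gave 14 without the S. pennellii shade library and 15 without the S. lycopersicum sun library.

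The members' median difference had the sign of the median over all genes tested in leaf, root, inflorescence and vegetative meristem, and the opposite sign in stem (0.05 against -0.06). The stem value was 0.01 without the S. pennellii sun stem or the S. lycopersicum shade stem and 0.11 without the S. pennellii shade stem. In leaf it was -0.32 among members and -0.38 among all genes, in root 0.21 and 0.24, in inflorescence 0.12 and 0.22, and in vegetative meristem -0.14 and -0.14. After median-ratio scaling the leaf medians were 0.18 and -0.06, the root medians -0.10 and 0.00, and the inflorescence medians -0.20 and -0.03. In S. habrochaites against S. lycopersicum seedlings the deposited values gave -0.06 and -0.14, and the rescaled ones 0.08 and -0.03.

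**Figure D5:**
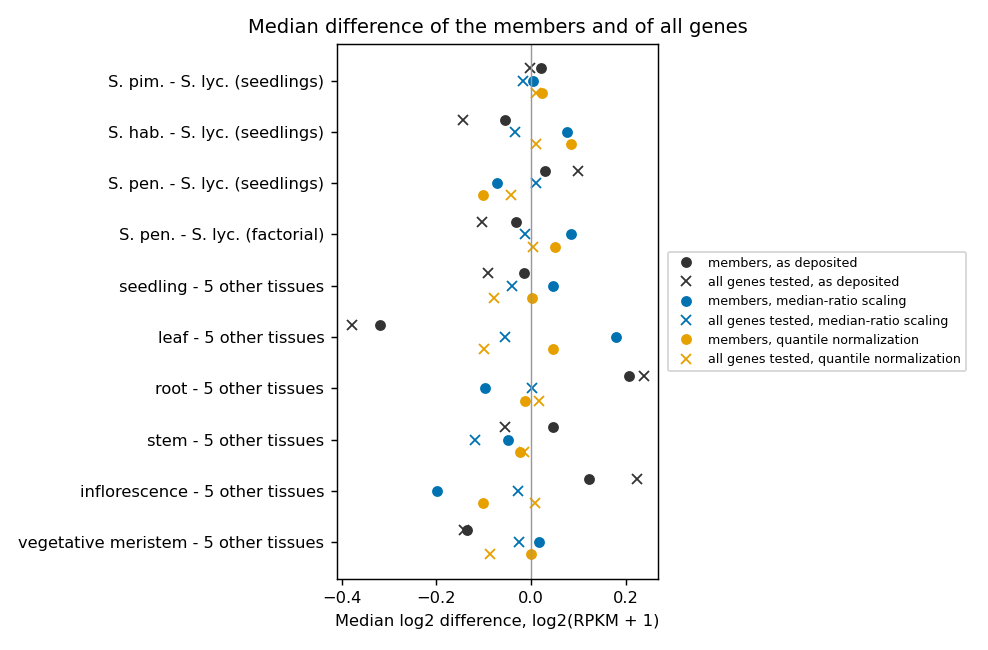
Median log2 difference of the members (filled circles) and of all genes tested (crosses) in 10 contrasts, for the deposited values (black), median-ratio scaling (blue) and quantile normalization (orange). In leaf the members' median is -0.32 in the deposited values and 0.18 in the median-ratio values, and in root it is 0.21 and -0.10.

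Which genes counted as most even depended on the scaling of the libraries. The same rule applied after median-ratio scaling shared 32 of its 100 genes with the members, and after quantile normalization 42, while the 2 rescaled lists shared 69 with each other. In all 3 lists were 28 genes, and 54 members were in neither rescaled list. The members were still low in spread there, with a median SD of 0.284 in the median-ratio values and 0.273 in the quantile-normalized values, beside medians of 0.507 and 0.514 over the eligible genes. Among the 10% smallest SDs were 70 and 83 members, respectively. The median rank of a member was 216 in the first and 114 in the second, over the 99 members that kept at least 10 RPKM in every library.

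The first-ranked gene shows the change. Solyc10g005650.2.1 had an SD of 0.183 in the deposited values, 0.328 in the median-ratio values and 0.271 in the quantile-normalized values, at ranks 1, 484 and 111. After median-ratio scaling it ran from 31.8 to 91.7 in scaled RPKM, with means of 74.2 ± 13.8 in leaf and 43.4 ± 7.96 in inflorescence (SD, n = 4). Solyc06g075590.2.1 on chromosome 6 did the opposite and was singled out after its values were seen. It had rank 60 as deposited, with an SD of 0.311 and means of 23.9 ± 4.80 RPKM in leaf and 44.4 ± 2.51 RPKM in root. It had rank 1 under both other scalings, with SDs of 0.164 and 0.169 and scaled means of 30.1 ± 5.11 in leaf and 34.8 ± 2.08 in root after median-ratio scaling. Solyc02g094540.2.1 kept a high place under each, at ranks 2, 25 and 13. Solyc06g005950.2.1, the leaf-high gene, fell from rank 23 to ranks 1668 and 1027.

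The 2 experiments share no library, and the rule applied to one can be read in the other. The 100 smallest SDs over the 28 seedling libraries, among 5986 genes with 10 RPKM in all of these, had a median SD of 0.519 in the factorial (0.200 to 2.77), beside 0.634 for the eligible genes, and 81 of the 100 lay below that median. The 100 smallest over the 24 factorial libraries, among 4722 genes, had a median SD of 0.281 in the seedlings (0.128 to 0.869), beside 0.361, with 66 below. Only 79 of this factorial list and 98 of the seedling list were eligible genes, so each list and its background are not of like selection. Only 7 genes were on both lists, and the members shared 15 with the seedling list and 40 with the factorial list. The 5 members on both were Solyc10g005650.2.1, Solyc07g065710.2.1, Solyc07g055300.2.1, Solyc11g042930.1.1 and Solyc09g064370.2.1. The SD was larger in the factorial than in the seedlings for 97 members and for 3924 (93.7%) of the eligible genes. Its medians in the 2 experiments were 0.347 and 0.229 among members and 0.634 and 0.361 among eligible genes. No gene was on both of these lists and on all 3 lists of the different scalings. The genes that were on all 3 scaling lists and the seedling list were Solyc08g007110.2.1 and Solyc01g099280.2.1. The second of these was the gene with the widest tissue range among the members.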

How the data were processed

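RPKM values were deposited by the authors as 1 table of 52 columns, each matched to a library by its title, and no column was left unused. Per the submitters' processing notes the tools were CASAVA 1.4 and BWA 0.5.7. The sources used here do not name the alignment reference of each species or the way reads shared by similar or overlapping genes were counted. The fidelity of mapping wild-species reads was not tested. RPKM values were turned back into reads from their steps: 100% of the values above 0 came out whole within 0.02 reads. Lengths came from the same steps.

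Differences were fitted with limma 3.58.1 in R 4.3.3 (trend, robust) on log2(RPKM + 1), a scale that understates the change of low genes. The seedling fit used genes with at least 1 RPKM in 7 libraries, and the factorial fit those with at least 1 RPKM in 2 libraries, with 1 mean per combination of species and tissue and, within a species, 1 term for light. A gene was called at a Benjamini-Hochberg adjusted p under 0.05. Tables were handled with Python 3.11.15, pandas 2.3.3 and numpy 2.4.6, and the fits were tested on simulated data.

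Members and lists were chosen with earlier results of these data known. The genes named are the 5 smallest SDs, ranks 98 to 103, the 2 highest and 2 lowest levels, the 2 widest tissue and species ranges, the largest positive and negative difference per contrast and the 2 closest pairs. Others are counts of 5 or fewer or were picked after their values were seen. No gene ID matched the reference gene table (0 matched), so no name, function or sequence is given.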

Additional observations from a re-analysis of the deposited data

Results flagged for a closer look

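The 33 named members and the median deviation of all members were examined for a seedling library standing apart from the other 6 of its species, by the gap to the nearest library relative to the whole range. Of 136 groups, 4 had such a library, and chance alone flags about 1 in 20. Solyc01g008770.2.1 was at 40.2 RPKM in S. pimpinellifolium library 12, with the next at 36.1. Solyc03g059100.1.1 was lowest, at 25.2 RPKM, in S. pennellii library 22, with the next at 33.9. Solyc10g005730.2.1 was at 68.1 RPKM in S. habrochaites library 19, with the next at 55.0. Solyc11g019930.1.1 was at 29.7 RPKM in S. pennellii library 25, with the next at 22.2. The 4 cases fell in 4 different libraries, and in each the mean of the 7 libraries enters the values above with that library included.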

How the results depend on the processing

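Of the 100 members, 62 remained with a minimum of 20 RPKM, 0 with no minimum, 32 with median-ratio scaling, 42 with quantile normalization, 63 by the range of log2 values, 60 by the SD over the means of 16 groups, 15 from the seedling libraries and 40 from the factorial libraries. Leaving out 1 library kept 88 to 100. With no minimum, the 25942 gene models above 0 in any library were ranked, and those at 0 in every library were left out. The median SD of the members was 0.273 in quantile-normalized values, 0.229 in the seedlings and 0.347 in the factorial. Members lowest in leaf numbered 2 with median-ratio factors and 6 with quantiles made equal, and members highest in root 10 and 18. Calls in leaf numbered 31 and 13 under these scalings (41.4% and 41.6% of all genes tested) and in root 17 and 21 (46.8% and 49.1%). In vegetative meristem there were 10 after median-ratio scaling (33.8%). With a log2 difference of at least 1 as well, leaf had 2 and 2 calls, and the share of all genes is not given there. With the run block as a covariate S. pimpinellifolium had 20 calls, beside 23.8% of all genes. Within the first and second blocks the calls were 3 and 3 for S. pimpinellifolium (9.03% and 10.4% of all genes) and 9 and 7 for S. habrochaites (24.8% and 24.7%). They were 11 and 16 for S. pennellii (33.8% and 38.7%) and 26 and 33 in the F test (50.9% and 59.0%). These fits hold fewer libraries. Leaving out 1 factorial library gave ranges of 14 to 51 calls in leaf (0 to 1 past the log2 difference), 15 to 41 in root, 14 to 30 in inflorescence, 7 to 23 in stem, 3 to 27 in vegetative meristem, 1 to 9 in seedling, 56 to 70 in the tissue F test, 16 to 24 between the species and 0 to 1 for species by tissue. The shares of all genes called with a library left out are not given here, so nothing is read from these ranges about the members. Causes were not tested. The 24 largest positive and negative differences named by contrast kept their direction and their side of the threshold under both scalings, without the filter and with a pseudocount of 0.1; with limma voom 23 did, and Solyc11g020590.1.1 in vegetative meristem lost its call at the same sign. Within the first run block 1 of the 6 seedling differences lost its call and within the second 2 did, all of S. pimpinellifolium. Leaving out 1 factorial library, 15 of 432 values lost their call and none changed sign; they belong to Solyc01g104170.2.1 and Solyc04g076090.2.1 in seedling, Solyc08g015780.2.1 in root, Solyc12g014380.1.1 in inflorescence, and Solyc11g020590.1.1 and Solyc09g014440.2.1 in vegetative meristem. No paired analysis was possible because the seedling groups share no replicate number and each factorial group holds 1 library; the light term is already taken within each species and tissue. Depth limits the members with the fewest reads, where counting alone gives an SD of up to 0.231.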
